A study of Homo sapiens with 6 samples.

Results

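Oxidative phosphorylation is carried out by 5 protein complexes of the inner mitochondrial membrane, and the genes described here code for their subunits and for some of the proteins that assemble them. They were chosen by symbol alone: names beginning with NDUF, UQCR, COX4, COX5, COX6, COX7, COX8 or ATP5, the mitochondrially coded genes beginning with MT-ND, MT-CO, MT-CYB or MT-ATP, and SDHA, SDHB, SDHC, SDHD and CYC1. This gave 103 of the 12396 genes measured. Of these, 80 were subunits coded in the nucleus, 13 were subunits coded in mitochondrial DNA, and 10 were assembly factors or other associated proteins. The nuclear subunits comprised 37 of complex I, 4 of complex II, 10 of complex III, 12 of complex IV and 17 of complex V. NDUFA4, named after complex I, was counted with complex IV, to which it is now assigned.

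RNA-seq compared 2 groups of JHH-4 cells, an established human hepatocellular carcinoma line labelled epithelial-like. One group was the control, labelled wild type, and the other carried a pri-miRNA plasmid that raises hsa-miR-372-3p. The sources used here do not give what the control cells received or how long either group was cultured afterwards. Reads from the miR-372 locus itself were not analysed here. Each group held 3 libraries of a single line, which the series calls technical replicates, so a p-value here covers the spread among libraries, which may be technical, and nothing beyond it.

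Complexes I and II take electrons from NADH and succinate, complex III passes them from ubiquinol to cytochrome c, and complex IV passes them to oxygen. Complexes I, III and IV pump protons as they work, and complex V, the ATP synthase, uses the proton gradient to make ATP. Complex II is coded wholly in the nucleus, whereas the others combine nuclear subunits made in the cytosol with core subunits made inside mitochondria, so that 2 genomes supply each of them. In liver cells the chain also takes up the electrons released by fatty acid oxidation, through the electron transfer flavoprotein and ubiquinone.

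Reads in gene rows totalled 46851245 to 60070397 per library, and no member had fewer than 78 reads in any library. The first principal component, with 72.5% of the variance, separated the groups. On the second component (10.2%) control replicate 3 scored −22.0, and the other controls 14.5 and 7.27, so results are given with and without it where it mattered. Of 12 hepatocyte markers, 5 were measured, among them FGA, FGB and FGG, which rose, and SERPINA1, which fell. ALB, HNF4A and the other 5 were not analysed here. Of 12 blood, endothelial and stromal markers, 4 were measured. Their sum ran from 134 to 155 counts per 1000000 reads (CPM) in control and from 211 to 223 in overexpressing cells, with COL1A1 and PDGFRB higher, and their part in the results below was not tested.

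Nuclear subunits fell more often than they rose, and nearly all mitochondrial subunits passed in neither direction. The difference between the classes was not tested as such. Among the 80 nuclear subunits, 34 fell and 1, NDUFA10, rose, while 45 did not pass the test (edgeR quasi-likelihood test, Benjamini-Hochberg adjusted p under 0.05 over all genes). The share that fell was 42.5%, against a background of 27.7% of all genes falling and 26.8% rising. The changes were small: the median log2 fold change of overexpression over control was −0.13 for nuclear subunits and 0.0013 for all genes, and 60 of the 80 nuclear subunits lay below 0. All 3 overexpression libraries lay below all 3 controls for 35 nuclear subunits, beside 31.4% of all genes. They lay above all 3 controls for 3 nuclear subunits, beside 3810 of all 12396 genes. Among the 13 mitochondrially coded subunits, 1, MT-ND4, rose and 0 fell, with a median of −0.03. At an unadjusted p under 0.05 the mitochondrial counts were 2 and 0, and with DESeq2 they were again 1 and 0. In bulk RNA of this kind, less RNA per cell and fewer cells with the RNA cannot be told apart.

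**Figure D1:**
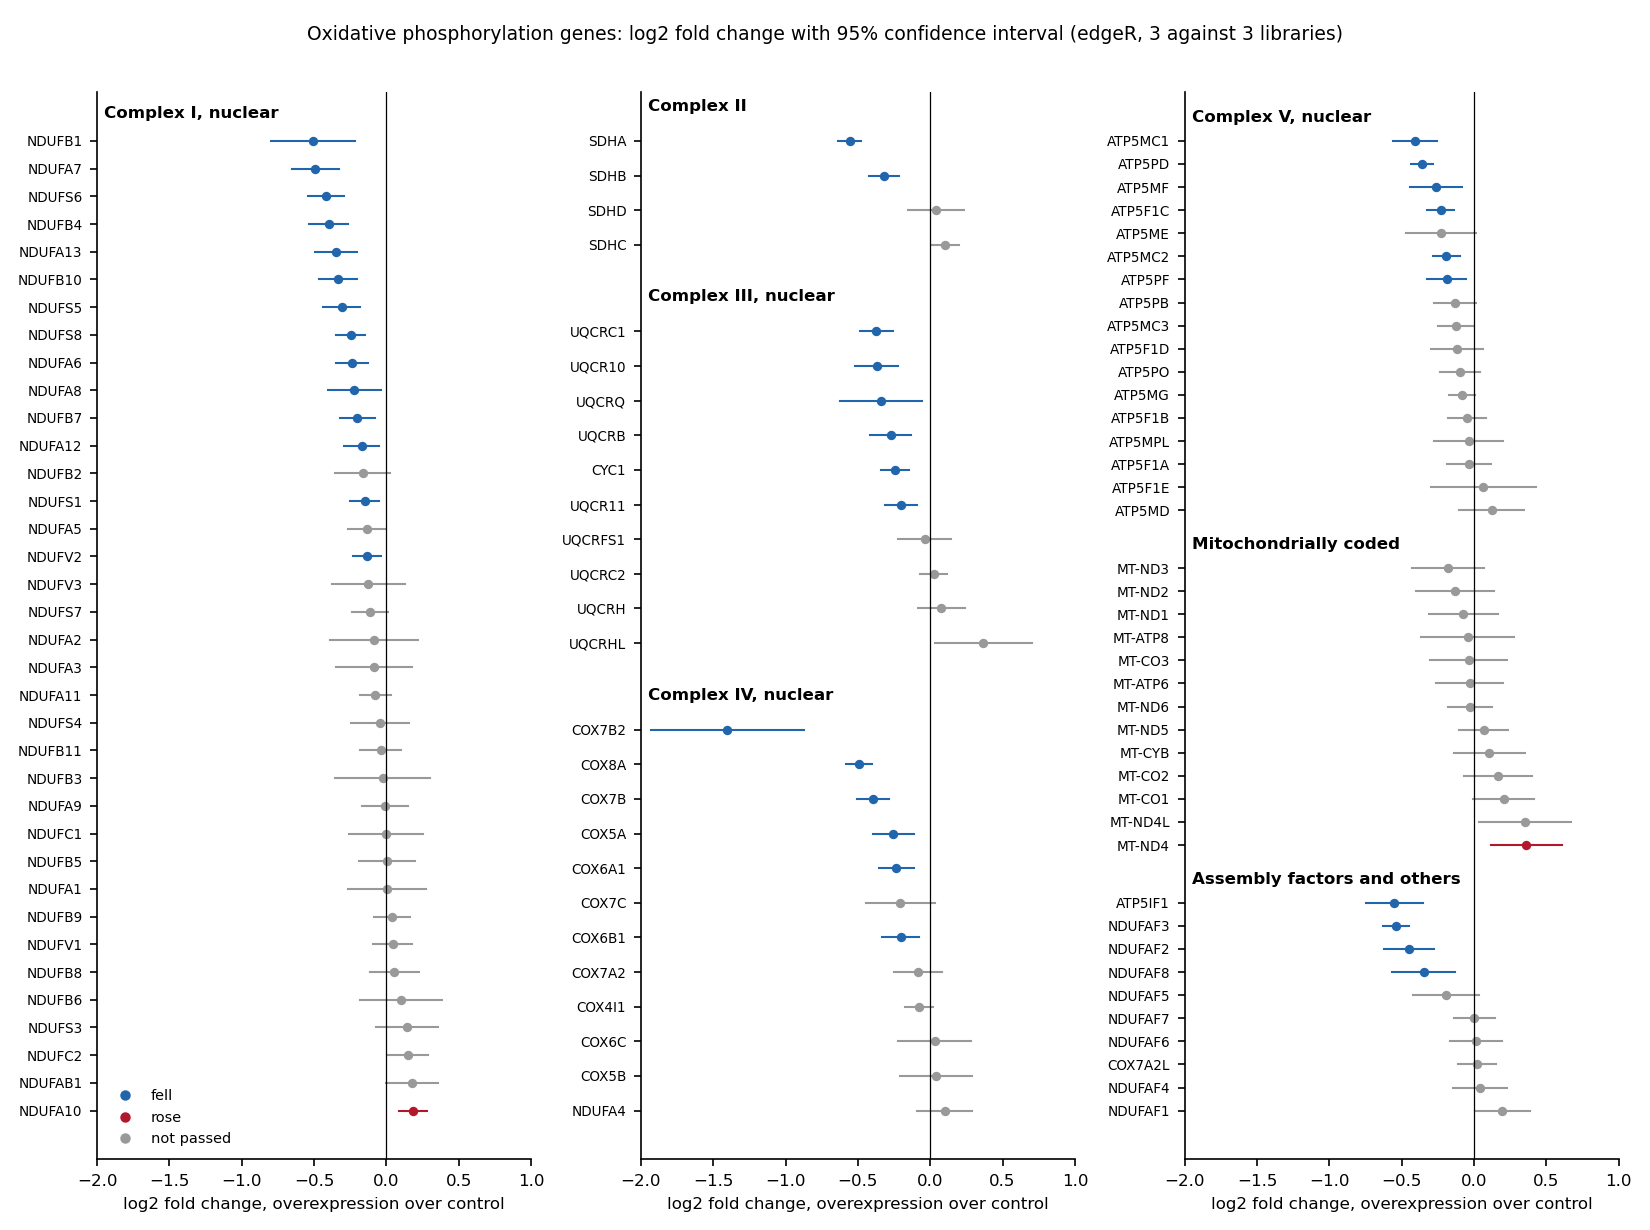
Log2 fold change (x axis, overexpression over control) of the genes described, each with its 95% confidence interval from edgeR, arranged by complex and coding genome. Blue points fell, red points rose and grey points did not pass an adjusted p of 0.05: 34 of 80 nuclear subunits are blue, and the single red points among subunits are NDUFA10 and MT-ND4.

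Control replicate 3 moved the counts of rising genes more than those of falling ones. It was the highest of the 3 controls for 59 of 80 nuclear subunits and the lowest for 13 of 13 mitochondrial ones, whereas control replicate 2 was the lowest for 53 nuclear subunits and the highest for 13 of 13 mitochondrial ones. Without control replicate 3, 32 nuclear subunits fell, all of them among the 34, and NDUFA8 and UQCRQ were lost. In the same fit 13 nuclear subunits rose, the largest of them 1.24-fold, beside 28.7% of all genes falling and 28.6% rising. These 13 included NDUFS3, NDUFB6, NDUFAB1, NDUFA4, SDHC, SDHD and ATP5F1E. The median of the nuclear subunits was then −0.08, that of mitochondrial subunits −0.10 and that of all genes 0.0033.

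**Figure D2:**
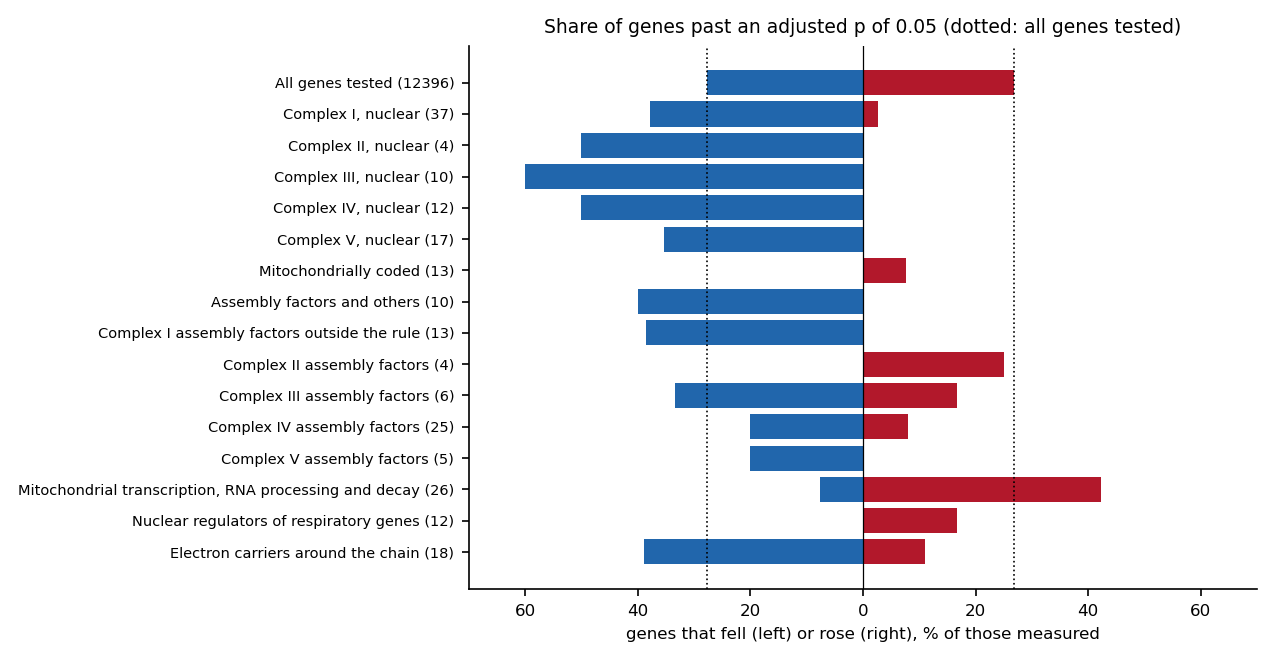
Share of genes (x axis, %) that fell (left, blue) or rose (right, red) past an adjusted p of 0.05, by complex, coding genome and pathway list, with the number measured in brackets and dotted lines at the values for all 12396 genes. Over the 6 libraries, 60% of complex III subunits fell (6 of 10; 5 of 10 with DESeq2), and 11 of 26 genes of mitochondrial transcription and RNA rose.

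Possible pairing of the microRNA with these transcripts was described from sequence. A microRNA recognises its targets mainly through its seed, bases 2 to 8, which pair with sites in 3′ untranslated regions. The mature miR-372-3p (RefSeq, GRCh38.p14, chr19:53787931-53787953, plus strand, 23 nt) is shown with its seed in capitals.
hsa-miR-372-3p: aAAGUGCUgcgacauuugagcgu
The letters searched were AGCACTT (complement of the seed), AGCACTTA (the same followed by A) and GCACTTA (bases 2 to 7 followed by A), on the transcript strand of the longest annotated 3′ UTR of each gene (GENCODE 29). Of the 80 nuclear subunits, 13 held such a match of 7 or more bases (16.25%), as did 28.9% of 12273 genes searched. The 3′ UTRs of the nuclear subunits were also shorter, with a median of 428.5 nt against 1386 nt. Among the 34 nuclear subunits that fell, 4 held a match (11.8%). With the 3′ UTR of any coding transcript searched, 15 of the 80 and 5 of the 34 held a match, beside 30.9% of the 12273 genes.

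Together with 3 of the 10 assembly factors and other proteins, 16 members held 26 matches. Of these 26, 16 followed the letters TGTAAT within the 11 bases before them, a context that recurs in Alu repeats. Of the 16 members, 5 carried a match in every coding transcript: SDHA, UQCRC1 and NDUFAF3, which fell, and UQCRFS1 and NDUFAF7, which did not pass. The first 3 of these and a longer match in NDUFA9, which did not pass, are printed with the matching bases in capitals, so that matches in genes that did and did not fall stand side by side.
SDHA: cagggagcgtgGCACTTAcctttgtccctt
NDUFAF3: tctaccctttgGCACTTAtcttgcttatca
UQCRC1: accacaaacacAGCACTTcggctcctctaa
NDUFA9: ccagcagtgccAGCACTTAggaattatgac
The capitals lie, in GRCh38, at chr5:256602-256608 in the 324-nt 3′ UTR of SDHA (plus strand), at chr3:49023244-49023250 in the 323-nt 3′ UTR of NDUFAF3 (plus) and at chr3:48599056-48599062 in the 125-nt 3′ UTR of UQCRC1 (minus). Those of NDUFA9 lie at chr12:4687772-4687779 (plus), in 1 of 2 coding transcripts.

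Of the 16 members with a match, 5 fell (SDHA, NDUFAF3, UQCRC1, NDUFS1 and UQCRB), 1 rose (NDUFA10) and 10 did not pass. Over all genes searched, 32.0% of the 3553 with a match fell, and 26.3% of the 8720 without one. NDUFA9, with an 8-base match, had a log2 fold change of −0.01. ATP5F1A, ATP5F1E, NDUFAF5, NDUFB6, NDUFC2, NDUFV3 and SDHC also held matches and did not pass. Most nuclear subunits that fell, 30 of 34, therefore held no match in the region searched, and a match is a description of letters, not evidence of binding.

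Complex I, the entry point for electrons from NADH, had 14 of 37 nuclear subunits falling (37.8%, beside 27.7% of all genes) and 1 rising, with a median log2 fold change of −0.09. The largest falls were those of accessory subunits, which surround the catalytic core. By count, 11 of 30 accessory subunits and 3 of 7 core subunits fell. NDUFB1, a small membrane-arm subunit, had 7.69, 6.63 and 7.66 CPM in the controls, against 4.64, 4.99 and 5.82 with overexpression. The groups did not overlap, and the log2 fold change was −0.51 ± 0.13 (SE; edgeR adjusted p = 0.0077).

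NDUFA7, an accessory subunit of the peripheral arm, fell from 27.9, 27.5 and 28.9 CPM to 18.1, 20.6 and 21.2. NDUFS6, which binds zinc near the iron-sulfur clusters, fell from 59.5, 58.5 and 53.2 CPM to 42.0, 44.6 and 41.7. NDUFB4, another membrane-arm subunit, fell from 37.6, 36.7 and 39.0 CPM to 27.0, 28.1 and 30.8. In all 3 genes the lowest control lay well above the highest overexpression library. Their log2 fold changes were −0.49 ± 0.07, −0.41 ± 0.06 and −0.40 ± 0.06 (SE), with edgeR adjusted p values of 3.07e-04, 1.72e-04 and 3.71e-04. NDUFA7 overlaps RPS28 on the other strand, and the library kit does not mark strand.

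The nuclear subunits of the catalytic core of complex I, which include those that bind the flavin and the iron-sulfur clusters, had a median log2 fold change of −0.11. NDUFS8 (−0.25 ± 0.04), NDUFS1 (−0.15 ± 0.05) and NDUFV2 (−0.13 ± 0.04) fell, while NDUFV1, NDUFS3 and NDUFS7 did not pass, with log2 fold changes from −0.11 to 0.14. NDUFS1 no longer passed without overexpression replicate 2, nor NDUFV2 without overexpression replicate 1. NDUFS1 overlaps EEF1B2 on the other strand. NDUFS3 overlaps CELF1 and KBTBD4 on the other strand and PTPMT1 on the same strand. NDUFA10 (ENSG00000130414, chr2:239892450-240025402, minus strand), an accessory subunit of the membrane arm, had 83.4, 81.0 and 86.6 CPM in the controls, against 92.4, 96.4 and 96.3 with overexpression. It was the only nuclear subunit of any complex to rise over all 6 libraries, at 0.18 ± 0.04 (SE; edgeR adjusted p = 0.0055), and it passed in all 13 alternative fits.

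Complex II oxidises succinate within the tricarboxylic acid cycle. Its catalytic head is made of SDHA, the flavoprotein, and SDHB, the iron-sulfur protein, and both fell, whereas the membrane anchors SDHC and SDHD did not pass. The difference between head and anchors was not tested. SDHA (ENSG00000073578, chr5:218241-256700, plus strand, GRCh38) had 166, 166 and 172 CPM in the controls, against 115, 116 and 112 with overexpression. Its log2 fold change of −0.56 ± 0.04 (SE, n = 3 libraries a group; edgeR adjusted p = 1.49e-06) was the largest of the 4 complex II genes in size, and it ranged from −0.57 to −0.54 over the 13 alternatives. Near-identical pseudogene copies of SDHA exist, and the authors' way of dividing shared reads is not known.

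SDHB (ENSG00000117118, chr1:17018722-17054170, minus strand) had 151, 144 and 136 CPM in the controls, against 112, 118 and 116 with overexpression, again with no overlap, and fell by 0.32 on the log2 scale with an SE of 0.05 (edgeR adjusted p = 2.97e-04). SDHC had 126, 126 and 133 CPM against 134, 138 and 142, with every overexpression library above the controls by a narrow margin. Its log2 fold change of 0.10 had a 95% confidence interval of 0.01 to 0.20 and did not pass after adjustment (edgeR adjusted p = 0.059). SDHD had 77.6, 76.9 and 96.2 CPM against 85.9, 80.3 and 91.7, so the groups overlapped, and the interval of its log2 fold change ran from −0.15 to 0.23. Without control replicate 3, both anchors passed as higher, SDHC at 0.13 (edgeR adjusted p = 0.016) and SDHD at 0.15 (edgeR adjusted p = 0.036). SDHD overlaps TIMM8B on the other strand.

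Complex III had 6 of 10 nuclear subunits falling, beside 27.7% of all genes, and a median log2 fold change of −0.22. With DESeq2, and when any library but control replicate 2 was left out, UQCRQ did not pass and the count was 5. UQCRC1 (ENSG00000010256, chr3:48599002-48610976, minus strand), a core protein related to the mitochondrial processing peptidase, had 286, 268 and 307 CPM in the controls, against 220, 227 and 218 with overexpression. Among complex III genes that fell it had the highest level per length, 129 FPKM in control, and its log2 fold change was −0.37 ± 0.05 (SE; edgeR adjusted p = 1.63e-04). Its partner UQCRC2 had 108, 105 and 113 CPM against 111, 112 and 108, and its log2 fold change was 0.02 with an SE of 0.04. The pair of core proteins thus showed different values although both belong to the matrix face of the complex.

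CYC1, the cytochrome c1 that hands electrons to cytochrome c, fell by 0.24 on the log2 scale, from 148, 148 and 155 CPM to 133, 125 and 122. UQCRFS1, the Rieske iron-sulfur protein, had overlapping groups and a log2 fold change of −0.04. Of the small subunits, UQCR10 (−0.37), UQCRQ (−0.34), UQCRB (−0.27) and UQCR11 (−0.21) fell. UQCRQ was the least stable of these, with 50.3 CPM in control replicate 2 against 42.9 to 52.8 in the overexpression libraries, so its groups overlapped. UQCRH, the hinge protein that binds cytochrome c1, and its intronless copy UQCRHL did not pass, at 0.08 and 0.37. The reads of this near-identical pair cannot be assigned with certainty, and UQCRHL had only 3.37 to 5.34 CPM.

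Complex IV, cytochrome c oxidase, had 6 of 12 nuclear subunits falling, beside 27.7% of all genes, and a median of −0.20. COX8A (ENSG00000176340, chr11:63974607-63976543, plus strand), the smallest subunit, was nearly constant among controls at 119, 120 and 120 CPM and lower in the overexpression libraries at 81.7, 86.3 and 87.0. Its log2 fold change of −0.49 ± 0.04 (SE; edgeR adjusted p = 6.25e-06) was larger in size than that of any other well-expressed complex IV subunit. COX7B fell from 38.8, 37.6 and 36.3 CPM to 28.9, 28.3 and 28.7, a log2 change of −0.39. Its paralog COX7B2, known from testis, was rare and fell further, from 5.45, 4.19 and 6.92 CPM to 2.12, 1.54 and 2.59. The log2 fold change of COX7B2 was −1.40 ± 0.24 (SE; edgeR adjusted p = 7.28e-04), the largest of the 103 genes, and its libraries held 78 to 336 reads.

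Subunits of complex IV with similar names had different values. COX5A fell (−0.26 ± 0.06) and COX5B had a log2 fold change of 0.04 with a wide spread, at 70.6, 58.9 and 86.0 CPM in the controls. COX6A1 (−0.24 ± 0.05) and COX6B1 (−0.20 ± 0.06), the broadly expressed forms, fell, although COX6B1 did not pass without overexpression replicate 1, and the muscle and testis forms COX6A2 and COX6B2 were not analysed here. COX4I1, which regulates the enzyme's response to ATP, had a log2 fold change of −0.08 and COX7A2 of −0.09, neither past the test. COX6C, COX7C and NDUFA4 did not pass, at 0.03, −0.21 and 0.10.

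Complex V had 6 of 17 nuclear subunits falling (35.3%, beside 27.7% of all genes) and a median of −0.13. The catalytic F1 head, where ATP is made, had a median log2 fold change of −0.05: ATP5F1A, ATP5F1B, ATP5F1D and ATP5F1E did not pass, and ATP5F1C, the rotating shaft, fell by 0.23 on the log2 scale. ATP5F1B, the catalytic beta subunit, had 1010, 938 and 1129 CPM in the controls, against 1004, 980 and 996 with overexpression. Its groups overlapped and the 95% confidence interval of its log2 fold change ran from −0.18 to 0.09.

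The membrane ring of c subunits, which turns as protons pass, is coded by 3 genes whose mature products are the same protein. ATP5MC1 had 75.8, 69.9 and 84.7 CPM in the controls, against 57.0, 56.5 and 60.1 with overexpression, a log2 fold change of −0.41 ± 0.07 (SE; edgeR adjusted p = 6.85e-04). ATP5MC2 fell by 0.19 on the log2 scale, and ATP5MC3, at −0.13, did not pass although its groups did not overlap. The 3 genes thus lay on the same side of 0, with different sizes of change.

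The peripheral stalk holds the head still against the turning ring. Its subunit ATP5PD had 168, 166 and 166 CPM in the controls, against 130, 132 and 128 with overexpression, a narrow spread in both groups. The log2 fold change was −0.36 ± 0.03 (SE; edgeR adjusted p = 1.85e-05). ATP5PF fell by 0.19 on the log2 scale, and its call was lost when control replicate 1 or 2, or overexpression replicate 1 or 2, was left out. The others, ATP5PB and ATP5PO, did not pass, at −0.13 and −0.10. Among small membrane subunits, ATP5MF fell (−0.26 ± 0.08), though not without control replicate 1 or overexpression replicate 1, and ATP5ME, ATP5MG, ATP5MD and ATP5MPL did not pass. ATP5PD overlaps KCTD2, and ATP5PF overlaps GABPA, on the other strand. So do ATP5PB with WDR77, ATP5ME with MYL5 and ATP5MD with TAF5, and ATP5MF overlaps PTCD1 on the same strand.

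**Figure D3:**
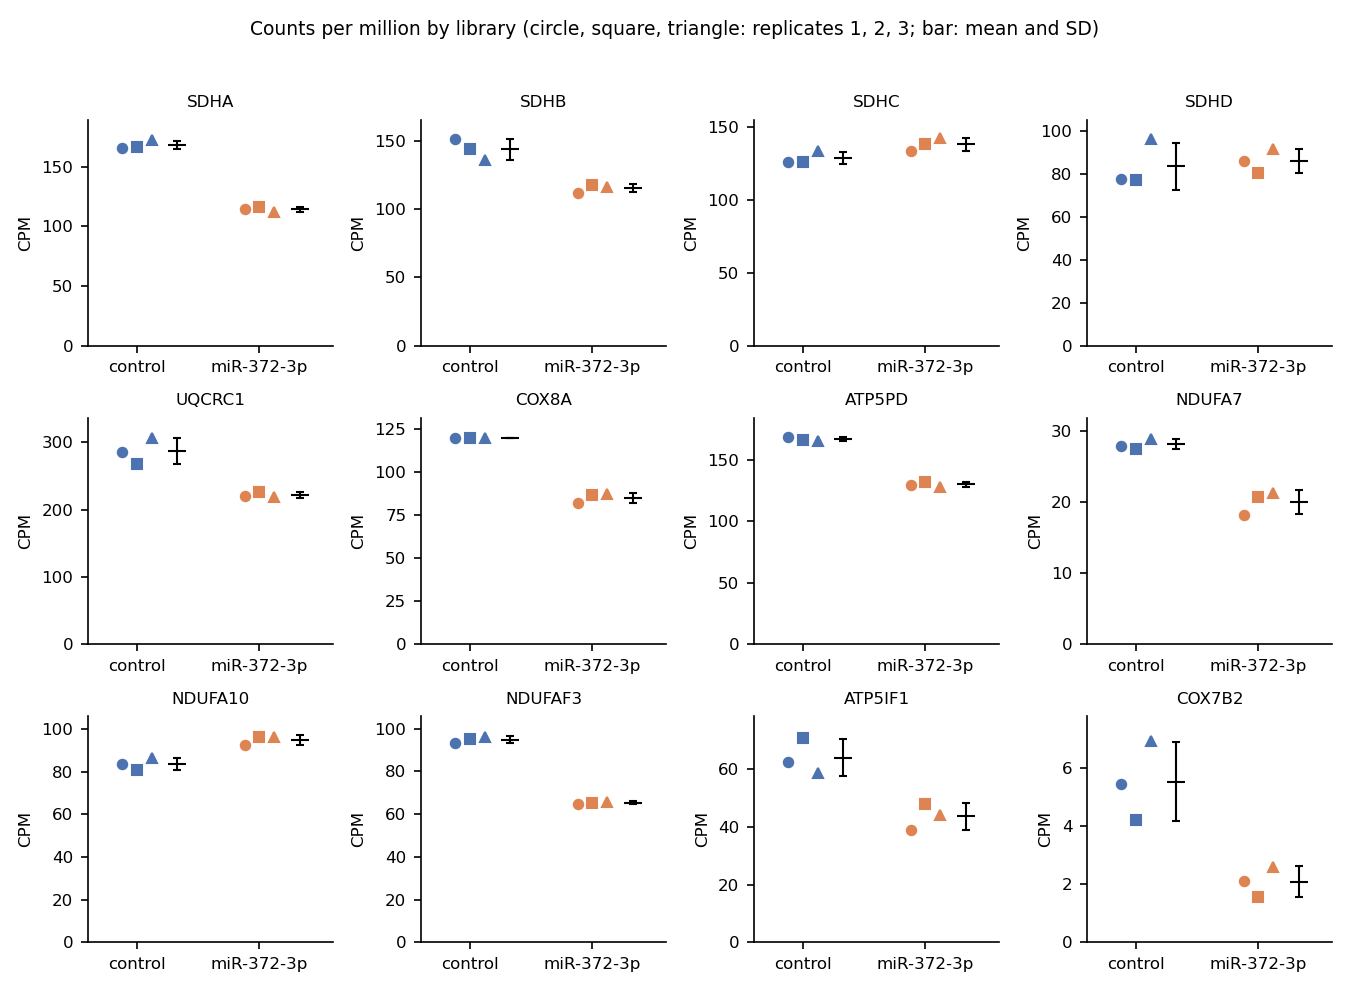
CPM (y axis, from 0) of 12 genes in each library, control in blue and overexpression in orange, with circles, squares and triangles for replicates 1, 2 and 3 and a bar for the mean with its SD. SDHA, COX8A, ATP5PD and NDUFAF3 show a gap between the groups far wider than the spread within them, SDHC and NDUFA10 lie higher in overexpression, and the SDHD points overlap.

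Summed over the nuclear subunits of each complex, CPM was lower on average in each of the 5 complexes. Complex II summed to 524 ± 12.4 CPM in control and 453 ± 8.14 in overexpression (SD, n = 3 each), 13.4% lower. Complex III was 12.4% lower and complex IV 11.4% lower, and in these 3 complexes no overexpression library reached the lowest control. Complex I was 5.31% lower and complex V 7.09% lower, with overlapping groups. Without control replicate 3 the order of separation was the same: complexes II, III and IV were 12.3, 9.55 and 8.48% lower and still separate, and complexes I and V were 2.55 and 3.23% lower and overlapped. Differences between complexes were not tested.

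Summed over all 80 genes, nuclear subunits had 7587, 7222 and 8153 CPM in the controls, against 6918, 7038 and 7088 with overexpression. All overexpression libraries lay below the lowest control, and the mean was 8.35% lower. With 3 libraries against 3, an exact two-sided permutation test cannot go below p = 0.1. The 13 mitochondrial genes summed to 55927, 66022 and 45576 CPM in the controls, against 59246, 63688 and 59133 with overexpression. The overexpression values fell inside the range of the controls, which was wide because control replicates 2 and 3 lay at its ends.

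Mitochondrial transcripts therefore made up 87.7 ± 2.68% of subunit reads in control and 89.6 ± 0.384% in overexpression (SD, n = 3 each), a difference smaller than the spread between controls. Leaving out control replicate 3 gave a difference of 0.532 percentage points and leaving out control replicate 2 one of 3.19. Without control replicate 3, the mean nuclear sum was 5.26% lower and the mean mitochondrial sum 0.468% lower than in control.

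**Figure D4:**
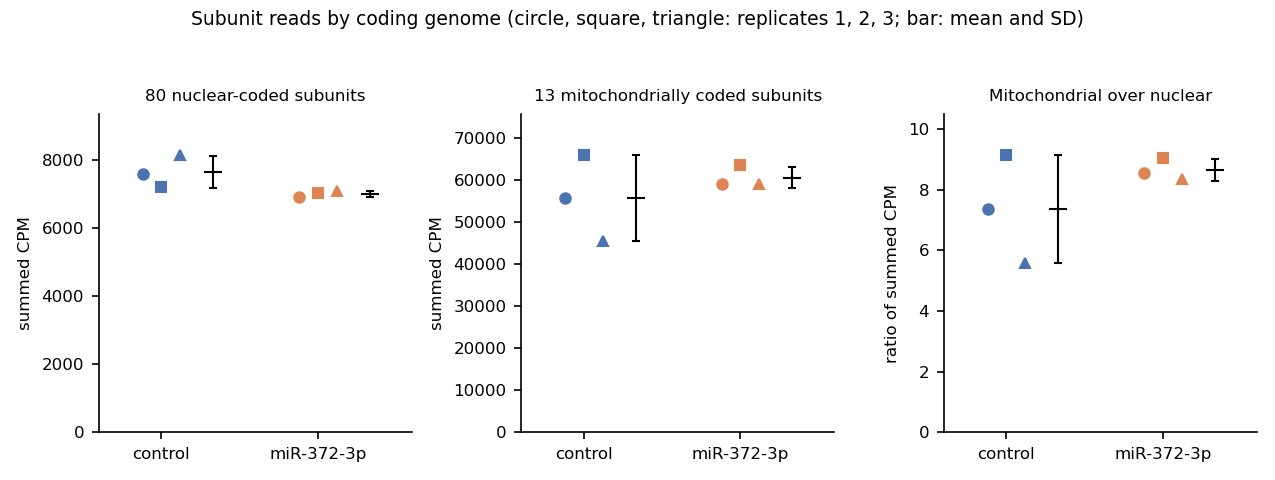
Summed CPM (y axes, from 0) of the 80 nuclear subunits and of the 13 mitochondrial subunits, and the ratio of the sums, in each library, with bars for mean and SD. The 3 overexpression libraries lie below every control for the nuclear sum (6918 to 7088 against 7222 to 8153) and inside the range of the controls for the mitochondrial sum.

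Per length, mitochondrially coded transcripts were far more abundant than nuclear ones. On the deposited FPKM scale, MT-CO1, the catalytic subunit of complex IV, had the highest level, 8268 in control and 9570 in overexpression. The lowest mitochondrial level was that of MT-ND6, at 807 and 796, and it still exceeded the highest nuclear one, that of ATP5F1B, at 500 and 486 FPKM. In control, ATP5F1B was followed by COX6A1 (295, and 251 with overexpression), ATP5PD (246 and 192), COX4I1 (228 and 215) and COX8A (209 and 149). With overexpression the order changed, as COX4I1 and NDUFB9 (204 and 210) then stood above ATP5PD and COX8A.

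Among mitochondrial genes the change was uneven. MT-ND4 (ENSG00000198886, chrM:10760-12137, plus strand), a membrane-arm subunit of complex I, had 7513, 8941 and 6061 CPM in the controls, against 9551, 9993 and 9404 with overexpression. The groups did not overlap, and the log2 fold change was 0.36 ± 0.11 (SE; edgeR adjusted p = 0.018), but the call was lost without control replicate 1 and without overexpression replicate 2. MT-ND4L, which is carried with MT-ND4 on a single messenger RNA, had 1455, 1815 and 1106 CPM against 1794, 2025 and 1771. Its log2 fold change was nearly the same, 0.35 ± 0.14, and did not pass (edgeR adjusted p = 0.058), as control replicate 2 overlapped the overexpression libraries. MT-CO1 stood at 0.21, MT-CO2 at 0.17, MT-CYB at 0.11 and MT-ND5 at 0.07.

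The others lay at or below 0: MT-ND6 at −0.03, MT-ATP6 at −0.03, MT-CO3 at −0.04, MT-ATP8 at −0.04, MT-ND1 at −0.08, MT-ND2 at −0.13 and MT-ND3 at −0.18. None of these passed over the 6 libraries, while MT-ND1, MT-ND2 and MT-ND3 passed as lower without control replicate 3. With the exception of MT-ND6, all are cut from a shared precursor read from the heavy strand of mitochondrial DNA. MT-ATP8, MT-ATP6 and MT-CO3 overlap or adjoin each other there, and nuclear copies of mitochondrial sequence exist, so the division of reads between such rows is uncertain. MT-ND6 lies on the minus strand, between MT-ND5 and MT-CYB on the plus strand, and the library kit does not mark strand. Its level and its share of the pool may therefore include reads from the opposite strand.

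Because the size of the mitochondrial pool varied among controls, each gene was also expressed as a share of the 13, a scale chosen after its values were seen. The shares were steadier than the CPM. MT-ND4 made up 13.4, 13.5 and 13.3% of the pool in the controls, against 16.1, 15.7 and 15.9% with overexpression. MT-ND4L made up 2.60, 2.75 and 2.43% against 3.03, 3.18 and 3.00%, and MT-CO1 25.9, 25.2 and 26.3% against 27.2, 27.2 and 27.5%. In these 3 genes every overexpression library lay above every control.

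In 7 genes every overexpression library lay below every control. MT-ND2, a further membrane-arm subunit of complex I, went from 8.12, 8.35 and 7.81% to 7.03, 6.58 and 6.92%. MT-ND1, the subunit next to the ubiquinone site, went from 3.89, 3.78 and 3.76% to 3.35, 3.28 and 3.36%. MT-CO3, MT-ATP6, MT-ATP8, MT-ND3 and MT-ND6 lay lower too, and MT-ND5, MT-CYB and MT-CO2 overlapped. In CPM, by contrast, 1 of the 13 lay wholly above the controls and 0 wholly below. Over all 12396 genes, 3810 lay wholly above and 3898 wholly below in CPM, and the pool scale has no such background. Shares of a pool are tied to each other, so that a higher share of abundant MT-ND4 and MT-CO1 lowers the rest, and no single gene can be called unchanged from them.

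**Figure D5:**
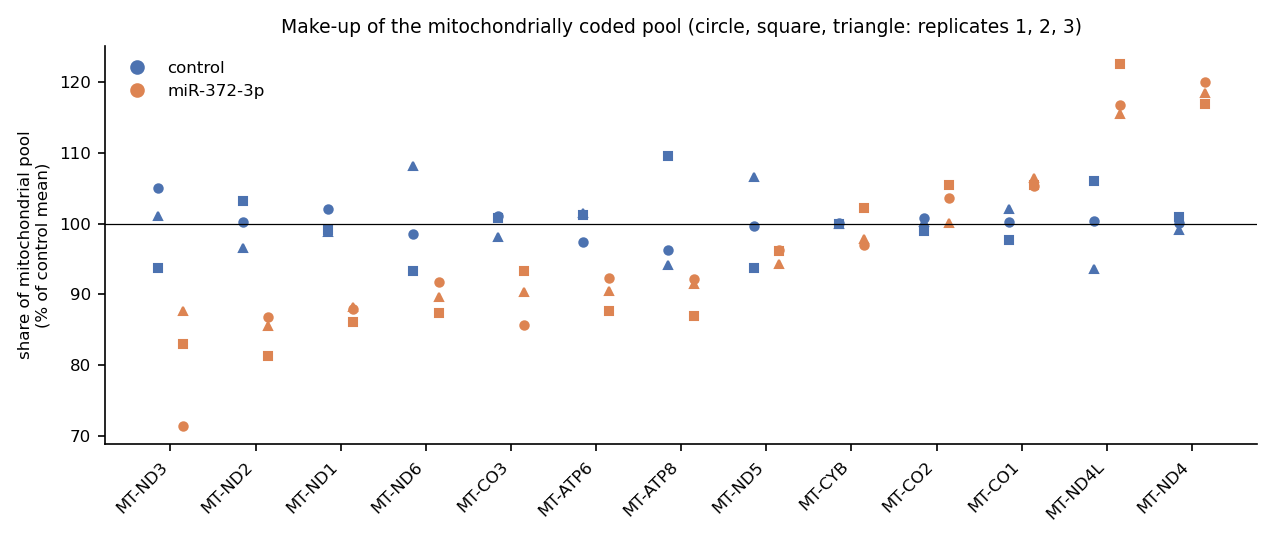
Share of each mitochondrially coded gene in the summed reads of the 13, as a percentage of its mean share in the controls (y axis, not starting at 0), control in blue and overexpression in orange, with circles, squares and triangles for replicates 1, 2 and 3. MT-ND4, MT-ND4L and MT-CO1 lie above the controls in all 3 overexpression libraries, and 7 genes from MT-ND3 to MT-ATP8 lie below them.

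Of the 10 assembly factors and other proteins, 4 fell, beside 27.7% of all genes, and 0 rose (1 at an unadjusted p under 0.05 with edgeR, and 0 with DESeq2). NDUFAF3 (ENSG00000178057, chr3:49020459-49023495, plus strand), which acts early in building complex I, had 93.2, 95 and 96.3 CPM in the controls, against 64.6, 65.3 and 65.9 with overexpression. This narrow spread gave a log2 fold change of −0.54 ± 0.04 (SE; edgeR adjusted p = 3.41e-06). Its partner NDUFAF4 had a log2 fold change of 0.04 and did not pass. NDUFAF3 overlaps DALRD3 on the other strand.

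ATP5IF1 (ENSG00000130770, chr1:28236109-28246906, plus strand), which blocks ATP synthase from running backwards, had 62.2, 70.8 and 58.4 CPM in the controls, against 38.8, 47.8 and 44.1 with overexpression. It fell by 0.55 on the log2 scale with an SE of 0.09 (edgeR adjusted p = 5.07e-04). NDUFAF2, a relative of the subunit NDUFA12 that occupies its place during assembly, fell by 0.45 with an SE of 0.08. NDUFAF8, the partner that stabilises NDUFAF5, fell by 0.35 with an SE of 0.10 and no longer passed without overexpression replicate 1. NDUFAF1, NDUFAF5, NDUFAF6, NDUFAF7 and COX7A2L, a factor of respiratory supercomplexes, did not pass, with log2 fold changes from −0.19 to 0.19.

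Other genes of the pathway outside the name rule were followed by list, and each count below stands beside 27.7% of all genes falling and 26.8% rising. Of 13 further assembly factors of complex I, 5 fell and the other 8 did not pass, led by DMAC1 (−0.33 ± 0.11) and ACAD9 (−0.30 ± 0.05), the latter an acyl-CoA dehydrogenase relative that serves in assembly. Of 25 complex IV factors, 5 fell and 2 rose, both smaller shares than over all genes. COX20, a chaperone of MT-CO2, fell from 41.9 to 20.8 CPM on average, a log2 fold change of −1.01 ± 0.08 (SE; edgeR adjusted p = 4.12e-06). HIGD2A fell by 0.54 on the log2 scale, while SCO1, which delivers copper, and COX15, which makes heme a, rose by 0.23 and 0.24.

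Of 6 complex III factors, TTC19 rose (0.31 ± 0.05) and UQCC1 and UQCC2 fell. Of 4 complex II factors, SDHAF3 rose (0.90 ± 0.18) from a low level of 1.16 CPM, and the other 3 did not pass. ATPAF1, which assembles the F1 head, fell by 0.33 on the log2 scale, and the other 4 complex V factors did not pass.

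A list of 18 genes joined carriers and enzymes that pass electrons to or along the chain with genes of ubiquinone synthesis. Of these 18, 7 fell and 2 rose, with a median of −0.25, beside 27.7% of all genes falling and 26.8% rising. SQOR, which passes electrons from sulfide to ubiquinone, fell from 157 to 85.8 CPM on average, a log2 fold change of −0.87 ± 0.05 (SE; edgeR adjusted p = 5.61e-07). COQ2, an enzyme of ubiquinone synthesis, fell by 0.62 on the log2 scale. ETFB, a subunit of the electron transfer flavoprotein, fell by 0.58, whereas its partner ETFA rose by 0.22. COQ8A, a kinase-like protein needed for ubiquinone synthesis, rose by 0.33 and its relative COQ8B fell by 0.44.

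Genes that copy and process mitochondrial DNA and RNA rose more often than they fell. Of 26 measured, 11 rose and 2 fell, with a median of 0.09, beside 26.8% of all genes rising and 27.7% falling. TWNK, the helicase of mitochondrial DNA, rose from 61.9 to 92.1 CPM on average, a log2 fold change of 0.57 ± 0.04 (SE; edgeR adjusted p = 4.49e-06). POLG2, an accessory subunit of the mitochondrial DNA polymerase, rose by 0.52. FASTK, a mitochondrial RNA-binding protein, and ELAC2, which trims mitochondrial transfer RNAs, fell by 0.21 and 0.18 on the log2 scale.

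TFAM, which packages mitochondrial DNA and starts its transcription, rose by 0.32 on the log2 scale, and LRPPRC, which stabilises mitochondrial messenger RNAs, by 0.24. Of 12 nuclear regulators of respiratory genes measured, ESRRA (0.30 ± 0.10) and PPRC1 (0.26 ± 0.07) rose and the other 10 did not pass. Higher levels of these genes stood beside a mitochondrial pool whose summed level did not differ beyond the spread of the controls.

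Promoters of the nuclear subunits were searched for short motifs of factors known to act on respiratory genes. The ETS motif CCGGAAG, bound by the GABP family, and CATGCGC, 1 arm of the NRF1 site, were sought on both strands from 250 bases before to 50 bases after the start site (RefSeq, GRCh38.p14). Of 80 nuclear subunits, 65 were matched to a promoter. The ETS letters were in 30.8% of these and in 19.7% of 10070 promoters of measured genes, and the NRF1 letters in 21.5% and 7.62%. Either motif was in 17 of 30 promoters of subunits that fell and in 11 of 35 of those that did not, beside 25.5% of the 10070. The difference between subunits that fell and those that did not was not tested. Promoter windows of 4 subunits that fell are printed with the motif in capitals, to show both motifs near start sites.
COX8A: cagctccagaaCTTCCGGccagcgcagcca
ATP5PD: ccgggaagataCTTCCGGaaccagccctca
SDHB: cacccgggaaaCCGGAAGccgcctcccact
NDUFB4: agcacttcgcgCATGCGCatatcaccgagc
These windows lie at chr11:63974591-63974620 (plus strand), chr17:75047052-75047081 (minus), chr1:17054142-17054171 (minus) and chr3:120596169-120596198 (plus). CTTCCGG is CCGGAAG read on the opposite strand. The motifs also stood in promoters of COX4I1, COX5B, NDUFS3 and UQCRH, which did not pass, and a match says nothing on whether a factor was bound.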

How the data were processed

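Members, gene lists and alternatives were chosen with earlier results of these data known. The authors deposited 1 table of raw read counts and FPKM values per library, with a p-value and a log2 fold change for the comparison, per the file headers. Per the labels' protocols, libraries came from 1 µg of total RNA and an unstranded kit (NEBNext Ultra RNA). The submitters' processing notes name GRCh38, HISAT2 2.0.4, StringTie 2.2.1 and DESeq2 1.38.3. The sources used here give neither the annotation release nor the counting method. Groups and replicate numbers came from sample titles, and 0 per-sample columns lacked a sample.

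The 1610 rows without a gene ID, 2.64 to 3.63% of counts, were left out of library sizes and tests. Counts of 12396 genes entered a quasi-likelihood F-test with TMM factors and no block (edgeR 4.0.16, R 4.3.3), with Benjamini-Hochberg adjustment and a threshold of 0.05. filterByExpr removed 0 genes, and the common biological coefficient of variation was 0.0796. CPM values use TMM-scaled library sizes, and confidence intervals are at 95%. FPKM served to compare levels between genes, with no test. No 2 libraries of a group agreed within sampling noise (chi-square over its degrees of freedom, 6.86 to 38.6). The fit was tested on simulated data. In the authors' deposited table, whose p-values are not stated to be adjusted, 36 nuclear subunits fell and 5 rose at a p under 0.05. The share of all genes at that p is not given here, so these counts cannot be set against a background. The deposited log2 fold changes differed from those given here by at most 0.0013 over the members.

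Named genes were all mitochondrial members and up to 4 nuclear subunits each way per complex. Among assembly factors and other members, up to 4 each way were named. Isoforms and subunits paired by name, SDHA to SDHD and the highest FPKM values were added. So were members with a seed match of 7 or more bases, and up to 2 each way per pathway list. Further members named were chosen after their values were seen. FASTKD4 and ESRRB, listed under those symbols, were not analysed here. A member and a marker enter the counts but are not reported here by name. Members overlapping another gene, and near-identical copies, have uncertain counts. Not every overlap is named above. Alternatives were DESeq2 1.42.0, other size factors, mitochondrial genes or unnamed loci treated differently in library sizes, a minimum mean of 5 CPM, a replicate block, and leaving out each library.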

Additional observations from a re-analysis of the deposited data

How the results depend on the processing

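In 13 alternative fits the number of falling nuclear subunits ranged from 27 to 38, and 24 of the 34 passed in all 13. COX7B2 passed in the 12 that tested it. The other 9 lost their call in at least 1: NDUFA8, NDUFB7, NDUFA12, NDUFS1, NDUFV2, UQCRQ, COX6B1, ATP5MF and ATP5PF, with UQCRQ reaching the highest adjusted p, 0.156. NDUFA8, whose groups overlapped, lost its call in 8 of the 13 fits and UQCRQ in 6. ATP5PF lost it in 4, NDUFA12 in 3, ATP5MF in 2, and NDUFB7, NDUFS1, NDUFV2 and COX6B1 in 1 each. No direction of a called result reversed. Falling counts ranged from 11 to 16 for complex I, 5 to 6 for III, 5 to 7 for IV, 4 to 8 for V and 3 to 5 for assembly factors and others, and stayed at 2 for complex II. Rising counts were less stable, and the cause was not tested. Rising nuclear subunits numbered 2 with DESeq2, 2 with mitochondrial genes left out of library sizes and 2 with the replicate block. Rising complex I subunits numbered 2 with DESeq2, and rising complex II subunits 1 with mitochondrial genes left out of library sizes and 1 with the replicate block. Rising mitochondrial genes numbered 4 with the replicate block. Leaving out 1 library at a time gave 1 to 13 rising nuclear subunits (13 without control replicate 3), 0 to 6 rising mitochondrial genes (6 without control replicate 2) and 0 to 3 falling ones (3 without control replicate 3). It gave 0 to 1 rising assembly factors or others, and 1 to 7, 0 to 2, 0 to 2 and 0 to 2 rising subunits of complexes I, II, IV and V, the highest of each without control replicate 3. In that fit 28.7% of all genes fell and 28.6% rose. Shares over all genes in the other alternative fits are not given here, so their counts cannot be set against a background. The labels do not say that shared replicate numbers pair the libraries. Deviations of same-numbered libraries from their group means correlated across genes at −0.136, −0.0517 and 0.103. Those of libraries with unlike numbers correlated at −0.150 to 0.217, so these values cannot settle whether same-numbered libraries were prepared together. Genes of low expression are not in the table, and 3 libraries a group limit what differences can pass.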

Other observations

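The deposited FPKM and counts gave close ratios for most members, and differed by over 0.2 on the log2 scale for 3 of 103. For ATP5F1A, the alpha subunit of the F1 head, FPKM was 55.9, 50.02 and 65.0 for control, against 151, 138 and 79.5 with overexpression, a log2 ratio of mean FPKM of 1.11. The counts of the same gene gave a log2 fold change of −0.04, with 359, 330 and 412 CPM against 362, 354 and 358. For UQCRB the log2 ratio of mean FPKM was 0.05 against −0.27 from counts, and for NDUFS1 it was −0.40 against −0.15. All 3 genes have an annotated coding transcript with a 3′ UTR of 4034 nt or more, at 4034, 5135 and 9368 nt in the order given. Such lengths were not particular to them. SDHC, NDUFA9, NDUFA5, NDUFAF5 and NDUFV3 had 3′ UTRs of 12907, 7209, 5122, 4372 and 4283 nt. Their FPKM and count ratios differed by 0.08, 0.02, 0.06, 0.13 and 0.01 on the log2 scale. The cause was not tested, and levels per length of ATP5F1A, UQCRB and NDUFS1 carry that uncertainty.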
